A study of Mus musculus with 4 samples.

Results

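The Notch pathway was followed through 10 genes in single myogenic progenitors (MPs) of regenerating mouse muscle. They were the receptors Notch1, Notch2 and Notch3, the ligands Dll1, Jag1 and Jag2, the nuclear mediator Rbpj, and the target genes Hes1, Hey1 and Heyl. Each was found once, by its symbol, among the 25827 genes of the files, so 10 of 10 were measured. The genes were chosen by their known place in the pathway and on their measured genotype values, Hes1 having been higher in both knockout libraries. Genotype values of these genes are therefore given as a description, with no p, and where a count of members called stands beside the share of all genes, nothing is read from it. Differences between cell classes were not used in the choice and were tested.

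MPs came from the tibialis anterior muscles of both legs of 12-week-old mice, on day 6 after injury with cardiotoxin, a toxin from snake venom that lyses muscle fibres. There were 2 libraries of Pax7Cre mice, with intact miR-501, and 2 of miR-501KO mice (Pax7CremiR-501fl/Y), in which Cre under the Pax7 promoter removes the floxed precursor of this X-linked microRNA from cells that have expressed Pax7. Both groups carried the Cre and received the toxin, and each library pooled 3 mice, so the spread between single animals was not seen. The replicate number is that of the run, and each run held a library of either genotype. P-values measure the spread between such pooled libraries. Sorting had kept cells positive for alpha7 integrin and negative for CD45, CD31 and Sca1. Below, 4 values in a row stand for Pax7Cre replicates 1 and 2 followed by miR-501KO replicates 1 and 2.

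Notch receptors are cut when a ligand on a neighbouring cell binds them. The freed intracellular part joins the DNA-binding protein RBPJ and switches on genes such as Hes1, Hey1 and Heyl, which encode repressors of transcription. In muscle the pathway is known for holding satellite cells, the Pax7-positive stem cells, in quiescence, and for restraining the myogenic factors Myod1 and Myog. Dll1 is known as the ligand that differentiating myoblasts present to their neighbours.

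The sequences below are shown because they bear on the deleted microRNA and on the members that differed most between cell states. The mature miR-501-3p (RefSeq, GRCm38.p6, chrX:7241270-7241291, minus strand) is printed with its seed, bases 2 to 8, in capitals.
mmu-miR-501-3p: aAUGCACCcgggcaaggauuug
The DNA letters that pair with the whole seed, GGTGCAT, were searched on the sense strand of the longest annotated 3′ UTR of each gene (GENCODE M21). They were found in 1282 of 20970 genes, or 6.11%, and in 1 of the 10 members. That member was Hey1, which encodes a repressor that Notch induces. Its 3′ UTR has 1137 bases and the match begins at base 934, and 30 bases around it, within one exon, are shown with the match in capitals (GRCm38, chr3:8663544-8663573, minus strand).
Hey1 3′ UTR: gttttccttttGGTGCATgaaaatgtggtt
No match was present in the 3′ UTRs of the other 9 members, among them Hes1, with 368 bases, and Rbpj, with 3742 bases. A match is a description of letters and not of binding.

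The 250 bases before the start of transcription were read from RefSeq (GRCm38.p6) for the 7 members listed there, Dll1 and Rbpj having 2 starts each. Hes1, Hey1 and Heyl were not in the table. Notch3 is shown as the gene with the largest fall in committed cells, and Dll1, at its upstream start, as the gene that rose most. The letters TGGGAA, the core bound by RBPJ, and CAGCTG, a site of the kind bound by Myod1 and Myog, were searched on both strands, and they share no overlap with each other. Capitals mark a match.
Notch3 (chr17:32166891-32167140, minus strand): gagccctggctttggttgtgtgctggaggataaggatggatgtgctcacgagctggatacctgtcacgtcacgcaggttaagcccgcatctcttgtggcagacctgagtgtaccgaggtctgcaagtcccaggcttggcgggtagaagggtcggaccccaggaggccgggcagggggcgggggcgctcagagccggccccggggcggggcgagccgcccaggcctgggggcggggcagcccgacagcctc
Dll1 (chr17:15376933-15377182, minus strand): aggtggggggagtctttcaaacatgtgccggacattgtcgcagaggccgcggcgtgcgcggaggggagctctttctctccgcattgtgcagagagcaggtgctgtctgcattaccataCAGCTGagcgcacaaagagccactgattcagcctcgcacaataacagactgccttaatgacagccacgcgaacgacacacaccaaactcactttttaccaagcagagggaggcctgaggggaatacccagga
Notch3 held neither set of letters, and Dll1 held CAGCTG once, starting 132 bases before the start. The window at the other start of Dll1, not shown, held neither. CAGCTG occurred in 4271 and TGGGAA in 7094 (21.6%) of all 32851 windows of this length. Among the 9 windows of members, CAGCTG was found in 2, that of Jag1 and the upstream one of Dll1, and TGGGAA in 2, both of Rbpj itself. The Rbpj windows overlap and share a match, so they are not separate finds.

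Of 16519 barcodes, 10450 cells held at least 5000 UMIs (unique molecular identifiers, 1 per captured RNA molecule) and 1000 genes, with 1829 to 3439 cells a library and median depths from 25254 to 34579 UMIs. From 3 to 7 barcodes of a library also occurred in another. Clustering was done without the 10 genes and 64 other genes of the pathway. By marker genes, 7 classes were named: 2370 quiescent-like cells (Pax7, Chodl), 2490 cycling-like, 1394 committed-like (Myog, Cdkn1c), 264 mural-like, 195 Schwann-like, 107 fibroblast-like and 345 macrophage-like. The last 4 do not belong to the myogenic lineage that the sort was meant to keep. Of 13 markers listed for quiescent-like cells, 6 were raised in cluster 2 and 7 in cluster 3, its main clusters. The name is thus one of likeness, and quiescence itself was not tested. Another 3285 cells stayed unnamed, and 2 unnamed clusters came almost wholly from miR-501KO replicate 1. No feature for the microRNA was present, and the host gene Clcn5, at 135 to 157 CPM (UMIs of a gene per 1000000 UMIs of the library or class) over the 4 libraries, lies outside the deleted part and does not check the labels.

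Of the receptors, Notch3 separated the cell states most. It measured 224, 245, 254 and 225 CPM in quiescent-like cells. In cycling-like cells the values were 103, 105, 111 and 82.5 CPM, and in committed-like cells 15.2, 9.84, 10.3 and 9.80 CPM. The 3 states did not overlap in any library. Notch3 fell by 1.18 ± 0.05 (SE) on the log2 scale in cycling cells and by 4.23 ± 0.12, or 18.8-fold, in committed ones, with edgeR quasi-likelihood adjusted p of 1.2e-12 and 7.0e-10 (8 sums from 4 libraries). After each cell had been thinned to 5000 UMIs, 66.3% ± 1.58 (SD, n = 4) of quiescent-like cells held a Notch3 UMI, against 36.3% ± 3.90 of cycling-like and 6.23% ± 0.887 of committed-like cells. The committed-like share did not stand above the 8.19% ± 2.53 of macrophage-like cells, a class outside the lineage. Whether either share is background was not tested, so the fold in committed-like cells compares with a level not shown to be above background. Outside the lineage, mural-like cells, the pericytes and smooth muscle cells of vessels for which NOTCH3 is a known receptor, held the most Notch3 RNA, 438 ± 66.1 CPM. That was 1.71-fold over quiescent-like cells (log2 0.77 ± 0.09, adjusted p = 2.6e-06), and all 4 mural-like values lay above all 4 quiescent-like ones.

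Notch1 and Notch2 followed the same order with smaller steps. Notch1 averaged 111 ± 12.9 CPM in the quiescent-like, 68.7 ± 7.02 CPM in the cycling-like and 51.2 ± 3.52 CPM in the committed-like class (log2 -0.63 ± 0.05 and -0.97 ± 0.06, adjusted p = 2.0e-09 and 1.7e-07). Its highest class was Schwann-like, at 146 ± 23.9 CPM, whose range from 114 to 167 overlapped that of quiescent-like cells, 97.3 to 126. Notch2 fell from 65.9 ± 10.1 to 44.8 ± 8.59 and 33.7 ± 4.54 CPM over the same 3 states (log2 -0.50 ± 0.05 and -0.83 ± 0.06, adjusted p = 1.4e-07 and 5.3e-07). The ranges over libraries of all neighbours in the order of its 7 classes overlapped, although quiescent-like cells exceeded macrophage-like cells (59.0 ± 8.58 CPM), and these exceeded cycling-like cells, within every library. When quiescent and committed cells were instead set by a gate on Pax7 and Myog UMIs, the Notch2 difference was -0.30 ± 0.13 and was no longer called (adjusted p = 0.076). Under this gate Pax7 cells held 56.6, 56.5, 78.0 and 56.0 CPM of Notch2. Myog cells held 37.5, 38.1, 68.7 and 36.8 CPM, so the step was smallest in miR-501KO replicate 1.

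Rbpj, through which all of these receptors act, did not fall with them. It measured 99.7, 118, 132 and 104 CPM in quiescent-like cells and 125, 130, 162 and 134 CPM in committed-like cells. Within every library the committed-like value was the higher, although the ranges over libraries overlapped. The rise was 1.34-fold (log2 0.42 ± 0.06, adjusted p = 6.6e-05). In cycling-like cells Rbpj was 1.17-fold lower than in quiescent-like cells (log2 -0.22 ± 0.05, adjusted p = 0.00037), and in mural-like cells 1.89-fold lower (log2 -0.92 ± 0.10, adjusted p = 3.6e-06).

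**Figure D1:**
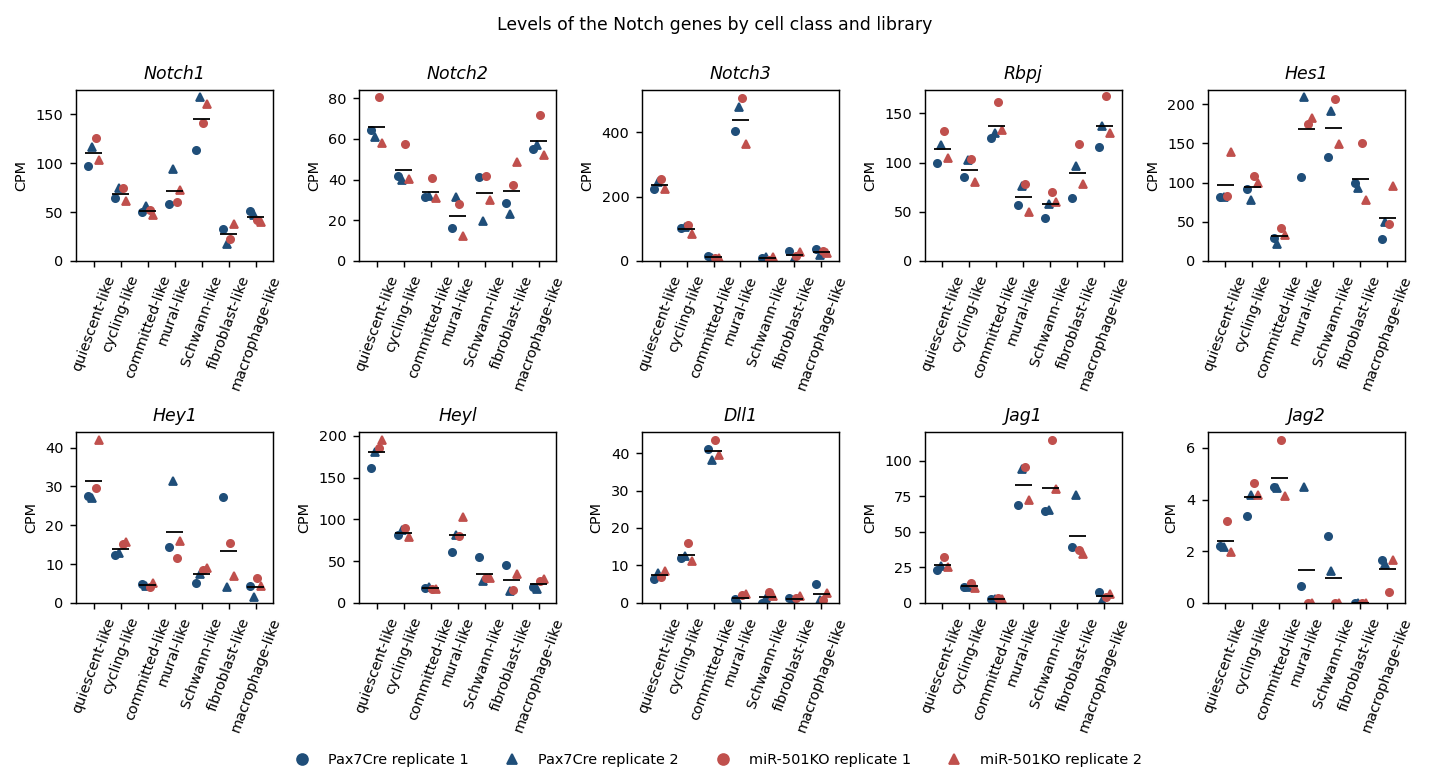
Level of each Notch gene (y axis, CPM, own scale for each gene, starting at 0) in 7 cell classes (x axis), with 1 point per library, blue for Pax7Cre and red for miR-501KO, circles for replicate 1 and triangles for replicate 2, and a black line at the mean of the 4. Notch3, Heyl and Hey1 descend from quiescent-like to committed-like cells, Dll1 ascends, and Notch3 and Jag1 are at their highest mean in mural-like cells.

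Among the targets, Heyl and Hey1 descended together with Notch3. Heyl held 162, 180, 186 and 196 CPM in quiescent-like, 81.4, 86.7, 89.4 and 78.6 in cycling-like, and 17.5, 18.5, 16.7 and 16.9 CPM in committed-like cells. No state overlapped another, and the falls were 2.06-fold (log2 -1.04 ± 0.05, adjusted p = 7.9e-12) and 9.39-fold (log2 -3.23 ± 0.07, adjusted p = 1.4e-10). A Heyl UMI was held by 53.1% ± 1.72 of thinned quiescent-like cells, by 9.82% ± 1.24 of committed-like cells and by 5.39% ± 2.51 of macrophage-like cells. In CPM, committed-like Heyl overlapped macrophage-like cells (22.1 ± 5.84 CPM). Its 9.39-fold fall thus compares with a level not shown to be above background. Hey1 held 27.5, 27.1, 29.5 and 42.0 CPM in quiescent-like and between 4.16 and 5.18 CPM in committed-like cells, a 6.02-fold fall (log2 -2.59 ± 0.10, adjusted p = 7.0e-09). The cycling-like value lay between them, 2.15-fold below the quiescent-like one (log2 -1.10 ± 0.07, adjusted p = 4.6e-10). Committed-like Hey1 lay within the range of macrophage-like cells, 1.52 to 6.39 CPM. Its 6.02-fold fall thus compares with a level not shown to be above background.

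Hes1 did not share this course. Its values were 81.3, 82.1, 82.7 and 139 CPM in quiescent-like and 91.5, 77.3, 109 and 99.9 CPM in cycling-like cells. The classes overlapped, and the difference was not called (log2 0.06 ± 0.09, adjusted p = 0.59). It rested on 1 library, since without miR-501KO replicate 2 Hes1 was higher in cycling-like cells (log2 0.21 ± 0.07, adjusted p = 0.022). The quiescent-like value averages its main clusters, cluster 2 at 169 ± 26.2 CPM of Hes1 and cluster 3 at 22.0 ± 5.80 CPM. Cycling-like cells lay between these clusters, so the difference depends on how a library's quiescent-like cells divide among them. Committed-like cells held 29.2, 21.2, 41.6 and 33.5 CPM, a 2.78-fold fall from quiescent-like cells (log2 -1.48 ± 0.15, adjusted p = 1.0e-05). Schwann-like cells (169 ± 34.9 CPM) and mural-like cells (168 ± 43.3 CPM) had the highest means of Hes1, and both lay above fibroblast-like cells (105 ± 31.3 CPM) within each of the 4 libraries, although the ranges over libraries overlapped.

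A list of 16 immediate early and heat shock genes, whose RNA rises within minutes of handling or dissociation, moved with the class differences of Hes1 in part. In committed-like cells 16 of the 16 fell, beside 36.9% of all genes, and in mural-like cells 13 rose and 1 fell, beside 28.4% and 27.4%. In cycling-like cells, where Hes1 was not called, 14 fell, beside 36.8%. Their part in the Hes1 values was not tested.

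The ligands ran in opposite directions. Dll1 rose most of the 3 members that were higher in committed-like cells, from 6.40, 7.97, 6.83 and 8.59 CPM in quiescent-like cells through 12.0, 12.6, 15.9 and 11.1 in cycling-like cells to 41.1, 38.2, 43.5 and 39.4 CPM in committed-like cells. No state overlapped the next, and the rises over quiescent-like cells were 1.80-fold (log2 0.85 ± 0.11, adjusted p = 3.9e-06) and 6.01-fold (log2 2.59 ± 0.10, adjusted p = 7.6e-09). A Dll1 UMI was found in 16.0% to 18.1% of thinned committed-like cells, 6.09% ± 0.968 of cycling-like and 4.22% ± 0.412 of quiescent-like cells, against 0.236% ± 0.472 of macrophage-like cells. In the 4 named classes outside the lineage Dll1 stayed at or below 5.01 CPM in every library.

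Jag1, a ligand known from vessel walls and glia, went the other way. It fell from 22.7, 25.7, 32.5 and 25.3 CPM in quiescent-like to 2.69, 2.62, 3.05 and 2.54 CPM in committed-like cells, with no overlap. This was an 8.71-fold fall (log2 -3.12 ± 0.10, adjusted p = 2.0e-09), and cycling-like cells lay between, 2.18-fold below quiescent-like cells (log2 -1.12 ± 0.07, adjusted p = 1.4e-10). Committed-like Jag1 overlapped macrophage-like cells (4.81 ± 2.67 CPM), so its fold compares with a level not shown to be above background. The highest Jag1 levels were in mural-like (82.7 ± 14.1 CPM) and Schwann-like cells (81.0 ± 23.3 CPM), which overlapped each other. Mural-like cells exceeded quiescent-like cells 2.86-fold (log2 1.51 ± 0.11, adjusted p = 2.9e-08).

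Jag2 was scarce, with 1182 UMIs in all cells. It rose from 2.19, 2.15, 3.18 and 1.98 CPM in quiescent-like cells to 4.49, 4.44, 6.30 and 4.15 CPM in committed-like cells (log2 1.17 ± 0.15, adjusted p = 6.0e-05), and no library overlapped. In cycling-like cells the rise was 1.79-fold (log2 0.84 ± 0.16, adjusted p = 0.00012). Fibroblast-like cells held no Jag2 UMI in any library, which allows a level of up to 2.56 to 6.30 CPM in a library at these depths. Mural-like cells held 4 Jag2 UMIs in all, and their lower value was called (log2 -2.02 ± 0.78, adjusted p = 0.040). The call was lost in several settings, among them DESeq2 and fits without Pax7Cre replicate 1 or either miR-501KO replicate (adjusted p from 0.074 to 0.22).

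**Figure D2:**
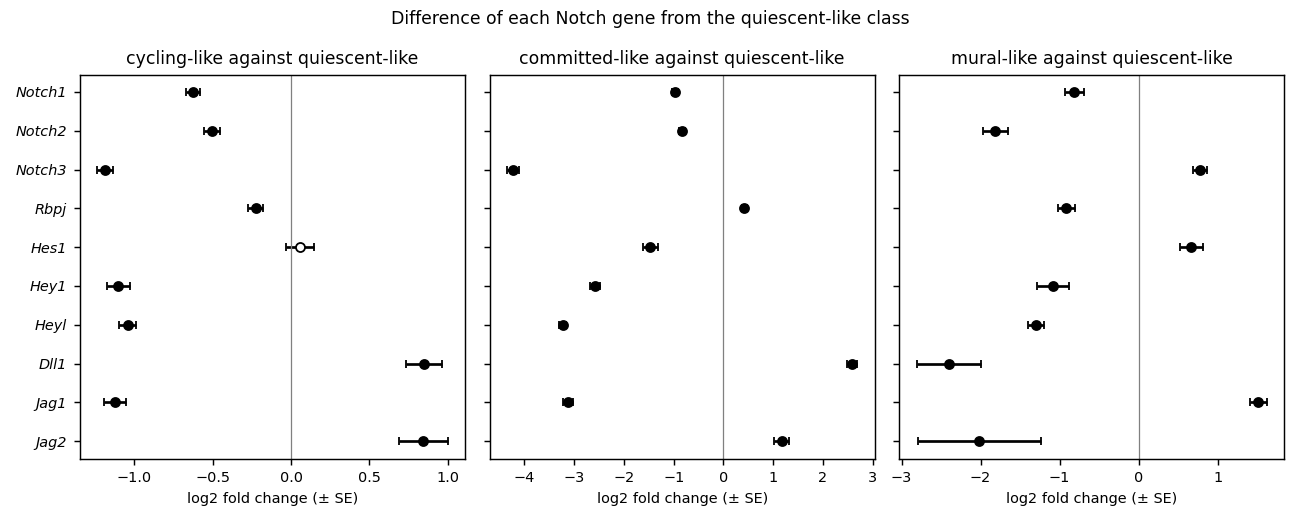
Log2 fold change of each Notch gene from the quiescent-like class (x axis, own scale in each panel) in cycling-like, committed-like and mural-like cells, with bars for the SE of edgeR's fit over 4 libraries. Filled points were called at an adjusted p under 0.05, and the open point, Hes1 in cycling-like cells at 0.06, was not.

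Counted together, 9 of the 10 members differed between cycling-like and quiescent-like cells, 7 lower and 2 higher, where 72.4% of 13015 genes tested were called, 36.8% lower and 35.5% higher. Between committed-like and quiescent-like cells 10 of 10 were called, 7 lower and 3 higher, beside 71.6% of 12536 genes, 36.9% lower and 34.7% higher. Between mural-like and quiescent-like cells it was 10 of 10, 3 higher and 7 lower, beside 55.8% of 12215 genes, 28.4% higher and 27.4% lower. Counts of this size sit on a high background, so the sizes are more telling. The median absolute log2 change of the members was 2.03 in committed-like cells, 0.84 in cycling-like and 1.19 in mural-like cells, and over all genes tested it was 0.51, 0.43 and 0.54. A change as large as that of Notch3 in committed-like cells was reached by 2.20% of the genes tested, and one as large as that of Dll1 by 6.69%, whereas 57.5% of genes changed as much as Rbpj. The size depended on how cells were assigned. With a gate on Pax7 and Myog UMIs over all cells in place of clusters, the log2 change from Pax7 to Myog cells was -2.24 ± 0.19 for Notch3, -1.73 ± 0.13 for Heyl, -1.58 ± 0.18 for Jag1, -1.50 ± 0.14 for Hey1 and -0.62 ± 0.12 for Hes1, all still called, and 2.56 ± 0.11 for Dll1.

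The quiescent-like class was made up almost wholly of 2 clusters. Cluster 2 (1187 cells) was led by Nppc, Chodl, Edn3, Egr1 and Fos, and cluster 3 (1107 cells) by Iigp1, Gbp2 and Mt2, genes of the interferon and metal responses. They were set apart after their values had been seen, so the contrast is a description. Hes1 measured 149, 148, 173 and 204 CPM in cluster 2 and 17.4, 16.6, 27.4 and 26.7 CPM in cluster 3, a ratio between 6.32 and 8.91 in every library. Dll1 differed almost as much, with 10.8, 14.0, 13.3 and 12.0 CPM against 2.25, 1.73, 3.03 and 2.40 CPM.

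Notch3 did not divide the clusters, at 237 ± 12.9 CPM in cluster 2 and 232 ± 15.6 in cluster 3. The ratio of cluster 2 to cluster 3 ran from 1.63 to 2.69 for Hey1, from 1.38 to 1.60 for Heyl and from 1.39 to 1.53 for Notch1, all above 1 in 4 of 4 libraries. Rbpj was below 1 in 4 of 4, from 0.585 to 0.748. Cells of near equal Notch3 level thus differed 7.65-fold in mean Hes1. The immediate early and heat shock list summed to 9429 ± 976 CPM in cluster 2 and 2520 ± 104 in cluster 3, and 15 of its 16 genes were higher in cluster 2 in every library. Its part in the Hes1 contrast was not tested.

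**Figure D3:**
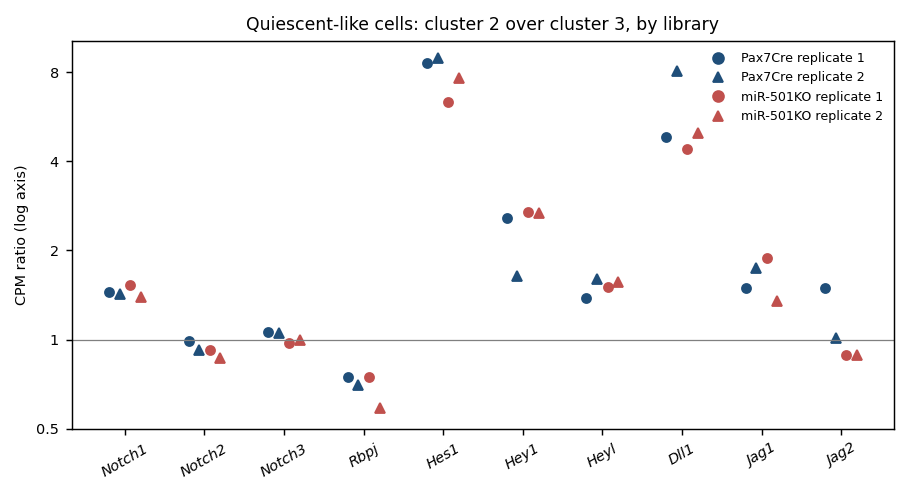
Ratio of the CPM level in cluster 2 to that in cluster 3, the main clusters of the quiescent-like class (y axis, log scale), for each Notch gene, with 1 point per library and the same colours and shapes as above. Hes1 lies between 6.32 and 8.91 and Dll1 between 4.39 and 8.07, whereas Notch3 lies between 0.971 and 1.06.

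Commitment also had an early and a late cluster. Cluster 5 (1042 cells) was led by Myog, Cdkn1c and Mymk, the last needed for myoblast fusion, and cluster 10 (352 cells) by Myh3, Myh8 and Acta1 of the sarcomere. Dll1 was at 49.9, 50.0, 66.1 and 46.1 CPM in the early cluster and 22.5, 7.93, 17.1 and 25.0 CPM in the late one, lower in each library. Notch1 fell from 70.6 ± 7.16 to 14.7 ± 3.57 CPM and Notch2 from 47.1 ± 11.7 to 10.0 ± 3.42 CPM. In the early cluster Notch1 was thus near its cycling-like level, 68.7 CPM. Jag2 alone among the 10 was higher in the late cluster in 4 of 4 libraries, with 8.62, 7.93, 10.1 and 6.84 CPM against 2.52, 3.09, 3.02 and 2.90 CPM. These clusters too were singled out with their values in view, so no test is given.

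Cycling-like cells were then divided by Dll1 itself. After thinning, 152 of them held a Dll1 UMI and 2338 did not. Cells with Dll1 had more Myog, 560 ± 256 CPM against 164 ± 26.0 (SD, n = 4 libraries), and less Pax7, 50.4 ± 9.73 against 77.4 ± 10.0 CPM. They held less Notch3, 67.2 ± 14.0 against 102 ± 12.7 CPM, less Heyl, 70.6 ± 3.27 against 85.0 ± 5.44, and less Hey1, 11.7 ± 0.930 against 14.1 ± 1.61. Each of these differences had the same sign in 4 of 4 libraries, the most the design can show, since an exact two-sided test of 4 pairs cannot give a p under 0.125. Hes1 was lower in 2 libraries and higher in 2. Notch2, 56.6 ± 10.6 against 44.1 ± 8.51 CPM, and Rbpj, 109 ± 8.72 against 92.0 ± 12.3, were higher with Dll1 in 4 of 4. The committed-like class, divided the same way (239 cells with Dll1, 1155 without), ran otherwise for Notch3 and Heyl. There Notch3, 13.6 ± 1.82 against 10.9 ± 2.82 CPM, and Heyl, 26.0 ± 2.95 against 15.8 ± 1.35, were higher with Dll1 in 4 of 4 libraries. So was Hes1, 54.3 ± 24.1 against 27.5 ± 7.37 CPM, while Hey1 was higher in 3 and lower in 1. Notch1, Notch2 and Rbpj were likewise higher with Dll1 in 4 of 4. By library, 93, 44, 39 and 41 cells with Dll1 lay in the early cluster 5, and 10, 1, 2 and 9 in the late cluster 10. Heyl was at 23.9 ± 0.301 CPM in cluster 5 and 4.71 ± 2.73 CPM in cluster 10. This split thus also parts early from late cells, and the part of the clusters in these differences was not tested.

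The pathway's other genes were read by role. Of 64 listed, 52 could be tested between committed-like and quiescent-like cells. Of these, 10 were higher and 35 lower, beside 34.7% and 36.9% of all genes. In cycling-like cells 5 were higher and 34 lower of 54, beside 35.5% and 36.8%. In mural-like cells 18 were higher and 16 lower of 51, beside 28.4% and 27.4%. Over these genes the median log2 change was -0.41 in committed-like, -0.39 in cycling-like and -0.15 in mural-like cells, beside -0.03, -0.03 and -0.04 over all genes. Their median absolute change, 0.52, 0.41 and 0.52, was close to that of all genes, 0.51, 0.43 and 0.54.

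Of the 6 genes known as Notch targets in satellite cells, Calcr and the collagens, 6 fell in committed-like cells, beside 36.9% of all genes. The median log2 change of the 6 was -3.34. Col5a3, a collagen V chain, was at 197 ± 22.3 CPM in quiescent-like cells and changed by a log2 of -3.77 ± 0.07 (adjusted p = 1.0e-10). Calcr, the calcitonin receptor of quiescent satellite cells, went from 4.41 ± 2.36 to 0.0122 ± 0.0244 CPM (adjusted p = 4.8e-07), the latter from UMIs of 1 library. All 6 also fell in cycling-like cells, beside 36.8% of all genes, Calcr with a log2 change of -3.28 ± 0.24 (adjusted p = 1.4e-09). In mural-like cells 5 rose and Calcr fell, beside 28.4% higher and 27.4% lower.

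Feedback genes and further Hes and Hey genes split. Nrarp, an inhibitor that Notch induces, fell from 7.26 ± 1.87 to 1.10 ± 0.524 CPM in committed-like cells (log2 -2.59 ± 0.20, adjusted p = 1.0e-06) and reached 49.6 ± 8.56 CPM in mural-like cells (log2 2.62 ± 0.19, adjusted p = 2.9e-08). Hes6, which is known to oppose Hes1 and to promote differentiation, rose from 40.4 ± 4.24 to 78.1 ± 4.90 in cycling-like cells and 244 ± 33.3 CPM in committed-like cells (log2 2.73 ± 0.06, adjusted p = 2.3e-10). Bhlhe40, a repressor of the same protein family, fell in committed-like cells (log2 -1.21 ± 0.09, adjusted p = 5.7e-07). Of this list 4 genes were tested there, 2 higher and 2 lower, beside 34.7% and 36.9% of all genes.

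Ubiquitin ligases and adaptors of the pathway held some of the widest changes. Dtx4, of the Deltex ligases, fell from 109 ± 7.11 to 7.44 ± 0.481 CPM in committed-like cells (log2 -3.73 ± 0.07, adjusted p = 9.6e-11). Neurl1a, of the Neuralized ligases that act on ligands, rose from 5.84 ± 0.805 to 70.2 ± 7.72 CPM (log2 3.71 ± 0.09, adjusted p = 4.5e-10). Its relative Neurl1b was near 0 in quiescent-like cells, at 0.193 ± 0.0646 CPM, and stood at 7.41 ± 1.65 CPM in cycling-like (log2 5.31 ± 0.22, adjusted p = 9.6e-13) and 12.5 ± 1.65 in mural-like cells. In this group 3 of 10 tested genes rose and 6 fell with commitment, beside 34.7% and 36.9% of all genes.

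The cleavage machinery fell more evenly. Of its 10 genes 9 were lower in committed-like cells and 0 higher, where 36.9% of all genes tested were lower. The changes were small, with a median of -0.44 on the log2 scale and a median absolute change of 0.44, under the 0.51 of all genes. Aph1b, a subunit of gamma-secretase, fell most, from 10.4 ± 0.282 to 3.27 ± 0.403 CPM (log2 -1.53 ± 0.13, adjusted p = 1.9e-06). Psen2, a catalytic subunit, fell in cycling-like cells (log2 -1.80 ± 0.08, adjusted p = 2.4e-12). Among enzymes that add sugars to the receptors, 4 of 5 fell with commitment, beside the same 36.9% of all genes. Lfng, the lunatic fringe transferase, did so from 2.42 ± 0.415 to 0.264 ± 0.128 CPM (log2 -3.02 ± 0.34, adjusted p = 2.1e-05).

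Nuclear cofactors and corepressors went both ways, 4 up and 8 down of 15 in committed-like cells, beside 34.7% and 36.9% of all genes. Tle1, a Groucho corepressor, rose (log2 1.20 ± 0.09, adjusted p = 1.1e-06) as Tle2 fell (log2 -2.37 ± 0.20, adjusted p = 2.6e-06). Of other receptors and ligands, only 2 of 6 could be tested there, and Dlk2, an atypical ligand, was higher (log2 4.43 ± 0.50, adjusted p = 2.0e-05). Dlk1, its relative, was at 554 ± 101 CPM in mural-like and 17.8 ± 7.15 CPM in quiescent-like cells (log2 4.90 ± 0.23, adjusted p = 2.7e-10).

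Likeness of pattern was measured as Pearson's r of log2(CPM + 1) over 28 sums, 7 classes in 4 libraries, among 8777 genes with a mean of at least 10 CPM. Sums of a library share its depth, so r is a description. Nearest to Dll1 were Popdc2 (r = 0.96), Arpp21 (0.94) and Myod1 (0.94). Nearest to Heyl were Jade1 (0.91), Ntn4 (0.88) and Tnpo1 (0.86), and nearest to Notch3 were Raph1 (0.86), Gstm1 (0.84) and Mt1 (0.82). For Hey1 they were Lama2, Lrig1 and Nsg1 (0.86, 0.86 and 0.84), and for Hes1 Eml1, Ubqln2 and Fads2 (0.91, 0.90 and 0.89). Between members, Hes1 was most like Jag1 (0.85), and Heyl was like Hey1 (0.83) and Notch3 (0.81).

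Between the genotypes, the values behind the choice of these genes were as follows. Hes1 over all cells measured 78.5, 73.5, 103 and 110 CPM, with both miR-501KO libraries above both controls and a fitted log2 difference of 0.47 ± 0.09 (SE). Without the 2 clusters that came almost wholly from miR-501KO replicate 1, that library held 106 CPM. Hey1 (12.8, 14.1, 14.5 and 19.4 CPM), Jag1 and Jag2 also lay above the controls and Dll1 (15.9, 15.5, 14.0 and 14.7 CPM) below them, which left 5 members overlapping. The Dll1 value of miR-501KO replicate 1 was 15.9 CPM without those clusters, and the groups then overlapped. Of 15725 genes, 15.4% lay above and 9.98% below in the same sense. None of the 10 was called in all cells by edgeR, where 0 of 15725 genes were called (0%) and 440, or 2.8%, passed 0.05 without adjustment. By DESeq2 12 genes were called.

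Within classes Hes1 kept its sign while its size varied. The fitted log2 difference was 0.38 ± 0.18 for the quiescent-like class, 0.28 ± 0.13 for the cycling-like and 0.53 ± 0.18 for the committed-like one, and both miR-501KO libraries were above both controls in each. The quiescent-like value rested on replicate 2, since it was -0.11 without that library and 0.75 without miR-501KO replicate 1. Cluster 2, in which Hes1 was high, made up 49.1%, 50.6%, 37.9% and 60.7% of the quiescent-like cells. Within cluster 2 (149, 148, 173 and 204 CPM) and within cluster 3 (17.4, 16.6, 27.4 and 26.7 CPM) both miR-501KO libraries exceeded both controls. The same held for Hes1 in 7 of the 12 clusters that had at least 20 cells of every library, and it was below in 0. Of 15725 genes, 0.719% lay above in 7 or more of these clusters. The clusters share the same 4 libraries and Hes1 was chosen on this contrast, so nothing is read from this share.

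Hey1 was below the controls in 1 of 12 clusters, cluster 10, where it was at most 2.26 CPM. It was above them in 7, where 0.719% of 15725 genes lay above in 7 or more. The 7 included clusters outside the lineage with few Hey1 UMIs. These were the macrophage-like cluster 11 (13, 2, 16 and 8 UMIs) and the Schwann-like cluster 14 (2, 6, 6 and 10 UMIs). As for Hes1, nothing is read from the share of clusters. The quiescent-like values of Hey1, 27.5, 27.1, 29.5 and 42.0 CPM, gave a log2 difference of 0.33 ± 0.17, which was -0.02 without miR-501KO replicate 2. The receptors leaned in neither direction, and Notch3 overlapped between groups in all cells and in each of the 3 MP classes. Heyl differed by 0.07 ± 0.09 over all cells. Both miR-501KO libraries were above both controls for 3 members in quiescent-like cells (Hes1, Hey1 and Heyl), beside 21% of genes above and 8.01% below. In cycling-like cells it was 2 (Hes1 and Hey1), beside 12.1% above and 10.4% below. Among committed-like cells 2 lay above (Hes1 and Rbpj) and 1 below (Heyl), beside 17.7% and 10.4%. Within each of these classes edgeR called 0 of 10 members. Of all genes it called 11 in quiescent-like cells (0.0874%), with 471 (3.74%) under an unadjusted 0.05, 0 in cycling-like cells (0%), with 324 (2.42%), and 0 in committed-like cells (0%), with 306 (2.52%). The counts by DESeq2 were 6, 2 and 1, and with the run as a block they were 58, 41 and 0, in each case with 0 members. The members' genotype contrast having been used in their choice, nothing is read from these counts.

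The immediate early and heat shock list stood beside Hes1 here as well. It summed to 3739, 4310, 3913 and 4911 CPM over all cells and to 5205, 6283, 5326 and 7962 CPM in quiescent-like cells, the groups overlapping in both. Of its 16 genes, 7 lay above the controls in both miR-501KO libraries, 1 below and 8 overlapped, beside 15.4% of all genes above and 9.98% below. The median log2 difference of the list was 0.23 over all cells and 0.29 in quiescent-like cells, where 1 of its genes was called, against 0.00 and 0.01 for all genes. In committed-like cells, where Hes1 was 29.2, 21.2, 41.6 and 33.5 CPM, the list summed to 2209, 2271, 2115 and 2449 CPM. Its part in the Hes1 difference was not tested.

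**Figure D4:**
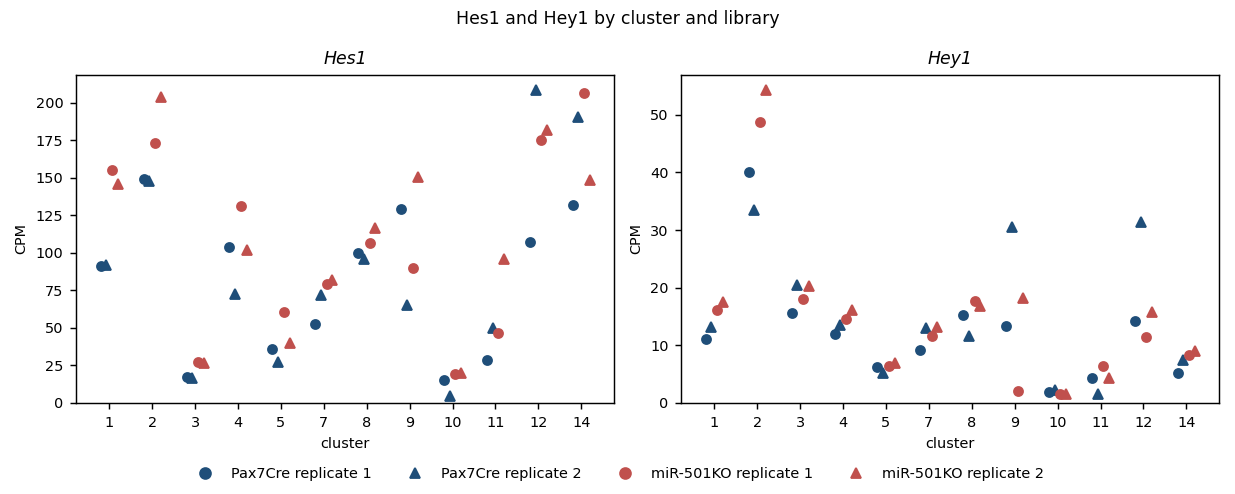
Level of Hes1 and Hey1 (y axes, CPM, starting at 0) in the 12 clusters with at least 20 cells of every library (x axis, cluster number), with 1 point per library, blue for Pax7Cre and red for miR-501KO, circles for replicate 1 and triangles for replicate 2. Both red points lie above both blue ones in 7 clusters for each gene, where 0.719% of 15725 genes did so in 7 or more. Hes1 in cluster 3 stays between 16.6 and 27.4 CPM.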

How the data were processed

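Single-cell RNA was measured in 2 Pax7Cre and 2 miR-501KO libraries. The authors made 10x Genomics 3′ libraries and deposited raw UMI counts per gene and barcode. Per the file headers they were made with Cell Ranger 6.0.2, and the submitters' processing notes name the build GRCm39. The analysis used barcodes of at least 5000 UMIs and 1000 genes, clustered in scanpy 1.11.5 (2000 variable genes, without the 10 members and 64 pathway genes, 30 components, 15 neighbours, Leiden resolution 0.5), and clusters were named where at least 3 marker genes were raised. No doublets were removed, since Scrublet marked too few cells for the method to have worked. Sequences are from GRCm38, another build than the files', and no coordinates were carried between builds.

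UMIs were summed per library and class and tested in edgeR 4.0.16 (R 4.3.3, filterByExpr, TMM, quasi-likelihood, Benjamini-Hochberg over all genes tested), with library as a block for classes and no block for genotype. Fold changes between classes are edgeR's. DESeq2 1.42.0 was an alternative. The members and lists were chosen with earlier results of these data known. The 10 members are always named. Other pathway genes were named by role, at most 3 per direction and class comparison, taken by size of change from the called genes with 1 direction in 4 of 4 libraries, and the text gives examples of these. Tests were checked on simulated data. The labels place libraries of one number in one run. Run differences correlated between groups at 0.23 over all cells and at 0.029, 0.0061 and -0.17 for the quiescent-like, cycling-like and committed-like class. Replicates of a group differed beyond counting error (chi-square over its degrees of freedom 67.2 and 70.2). Limits at 0 stand for 3 counts and cover counting error only.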

Additional observations from a re-analysis of the deposited data

Results flagged for a closer look

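In 13 of 80 sets of 4 library values, 10 genes in 7 classes and in all cells, the highest or lowest library lay beyond Dixon's limit for its group. Each set mixes both genotypes, and chance flags about 1 set in 20. In 5 of them miR-501KO replicate 1 was the highest, with 57.6 CPM of Notch2 in cycling-like, 40.5 in committed-like and 67.6 in all cells, 14.2 CPM of Jag1 in cycling-like cells and 6.30 CPM of Jag2 in committed-like cells. The same library was lowest for Jag2 in macrophage-like cells, at 0.400 CPM. In quiescent-like cells miR-501KO replicate 2 was highest for Hes1, at 139 CPM, with the other 3 from 81.3 to 82.7, and for Hey1, at 42.0 CPM. Pax7Cre replicate 1 was highest for Notch3 in committed-like cells (15.2 CPM) and Heyl in Schwann-like cells (54.4 CPM), and lowest for Heyl in all cells (89.2 CPM). Pax7Cre replicate 2 was highest for Jag1 in fibroblast-like cells, at 75.7 CPM from 11 cells, and for Jag2 in mural-like cells, at 4.48 CPM from 22 cells.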

How the results depend on the processing

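Over the alternatives run, the members' class differences kept their direction wherever they were called, and 363 of 370 values kept their side of the threshold. The exceptions were Notch2 in committed-like cells under the gate, Hes1 in cycling-like cells without miR-501KO replicate 2, and Jag2 in mural-like cells in 5 settings. The cause was not tested. Counts of members called were within 1.5 times of the main ones for all 3 class comparisons, and from 9 to 10 of 10 for committed-like cells. For genotype in all cells DESeq2 called 1 member and 12 genes, against 0 and 0. The members' genotype values were used in their choice, so nothing is read from their counts. Leaving out 1 library left a group with 1 library, which is then assumed to vary like the others. It gave 0 to 2 members in quiescent-like cells and 0 in the other genotype comparisons. Counts of all genes then ran from 0 to 3 in all cells, 7 to 202 in quiescent-like, 0 to 49 in cycling-like and 0 to 106 in committed-like cells, the highest counts being those without Pax7Cre replicate 2, miR-501KO replicate 2, Pax7Cre replicate 2 and Pax7Cre replicate 1. Among quiescent-like cells 58 genes were called with the replicate block, 6 by DESeq2, 57 with no filter on low counts, 26 with at most 10% mitochondrial UMIs and 0 without the 5% highest Scrublet scores, against 11. Cycling-like cells gave 41 with the replicate block, 2 by DESeq2, 53 with no filter and 1 without those scores, against 0. Committed-like cells gave 1 by DESeq2 and 2 with no filter, against 0, and 5 with a crossed replicate block, added after the data were seen. The block changed no member's call. No filter on low counts moved the median log2 change of all genes in mural-like cells from -0.04 to -0.21. Depth limits Jag2, and the classes outside the lineage hold as few as 11 cells a library.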

Other observations

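Cluster 19, 21 cells led by Fabp4, Cdh5 and Pecam1, stayed unnamed, and its values enter no comparison between classes. It held 41.3, 33.8, 32.3 and 64.9 CPM of Jag2, and 206, 131, 116 and 256 CPM of Notch1. Cluster 1, the largest unnamed one with 1959 cells and led by Spp1, Ass1 and Fn1, held 137 ± 20.9 CPM of Notch3 and 148 ± 14.0 CPM of Heyl (SD, n = 4). Its Hes1 values were 91.2, 91.9, 155 and 146 CPM, with both miR-501KO libraries above both controls.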
